A study of Mus musculus with 21 samples.

Results

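The genes described here encode 39 components of the lysosome: 18 hydrolases and cofactors of its lumen, 7 proteins of its membrane or of cholesterol export, and 14 subunits of the proton pump that acidifies it. They were taken as a named list of lysosomal genes and matched by symbol to the identifiers of the count table. All 39 were found among its 46071 genes, and all 39 passed the filter on low counts, as did 12658 genes in all. The rule names lysosomal genes and uses no measured value, but the list was proposed with earlier results of these data known.

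RNA sequencing was done on powdered quadriceps and gastrocnemius muscle of mice in 4 groups. Floxed mice, the controls, carry loxP-flanked Foxo1, Foxo3 and Foxo4 (4 libraries, numbers 1, 5, 9 and 19 in their titles). The triple knockouts (TKO) carry the same floxed alleles with Cre under the ACTA1 (skeletal muscle actin) promoter. This Cre acts in muscle fibres and leaves the FoxO genes of the other cells of the tissue intact (6 libraries, numbers 2, 6, 10, 13, 16 and 20). STZ floxed mice (5 libraries, numbers 3, 7, 14, 17 and 21) and STZ TKO mice (6 libraries, numbers 4, 8, 11, 12, 15 and 18) have the same 2 genotypes and were injected with 150 mg/kg of streptozotocin (STZ), which destroys pancreatic beta cells and so lowers insulin. Females had a further 75 mg/kg on day 3, only mice whose blood glucose stayed above 300 mg/dL were used, and controls of the treatment had citrate buffer. The sex of each library is not given, so its part in any difference was not tested. Controls and knockouts were littermates of mixed background. No age is given. Nothing states that the libraries come from separate animals, so p-values measure the spread between libraries only.

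Lysosomes digest the cargo that autophagy and endocytosis deliver. Their hydrolases work at acid pH, which the vacuolar-type ATPase (V-ATPase) maintains by pumping protons through its membrane sector V0 with energy from ATP hydrolysis in its cytosolic sector V1. In muscle, FoxO proteins are known as activators of autophagy genes when insulin is low, and many lysosomal genes are known targets of TFEB, a factor that binds the CLEAR element, a motif built around an E-box.

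The promoters of both members that passed the test below, Lgmn and Gaa, are shown, and that of Lamp1 because it held the CLEAR motif 4 times and passed no test. Gaa held the motif before its listed start, and Lgmn only before the second of its 2 listed starts. Whether that second start is used in this muscle was not tested. The sequences are from RefSeq (GRCm38.p6), read 5′ to 3′ on the gene's strand, and cover the 250 bases before a transcript start less any base that GENCODE annotates as exon. Capitals mark the CLEAR core TCACGTG or its reverse complement CACGTGA. Lgmn has 2 listed starts, the first with chr12:102439814-102439978 before it and the second with chr12:102439093-102439342, which lies inside the gene and outside its exons. The Gaa stretch is chr11:119267713-119267886, and the Lamp1 stretch is chr8:13158911-13159160. The Lgmn stretches are on the minus strand, the others on the plus strand.
Lgmn, first start: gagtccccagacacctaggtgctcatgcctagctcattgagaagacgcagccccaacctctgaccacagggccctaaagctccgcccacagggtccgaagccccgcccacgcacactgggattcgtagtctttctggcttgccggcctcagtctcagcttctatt
Lgmn, second start: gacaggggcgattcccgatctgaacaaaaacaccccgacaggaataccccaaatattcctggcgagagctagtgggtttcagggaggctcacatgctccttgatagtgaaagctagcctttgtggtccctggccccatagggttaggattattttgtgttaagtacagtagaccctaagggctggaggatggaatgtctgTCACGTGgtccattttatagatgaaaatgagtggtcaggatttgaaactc
Gaa: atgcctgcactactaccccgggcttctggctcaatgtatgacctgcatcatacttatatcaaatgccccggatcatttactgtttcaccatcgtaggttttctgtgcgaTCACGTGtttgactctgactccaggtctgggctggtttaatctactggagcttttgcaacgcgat
Lamp1: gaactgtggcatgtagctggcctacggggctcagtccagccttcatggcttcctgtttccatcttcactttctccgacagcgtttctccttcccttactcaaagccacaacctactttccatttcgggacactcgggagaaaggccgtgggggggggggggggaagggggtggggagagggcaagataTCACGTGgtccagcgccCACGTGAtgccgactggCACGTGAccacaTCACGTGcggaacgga

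Of the 39 members, 32 had a promoter in the table (not Ctsb, Ctsh, Asah1, Npc1, Atp6v1b2, Atp6v1c1 and Atp6v1h). In the window from 250 bases before to 50 after the start, searched on both strands, the CLEAR core was present in 12 of the 32 (37.5%), against 1160 of 27025 genes with a promoter (4.29%). These were Ctsa, Ctsd and Lgmn; Gaa, Gla and Glb1; Lamp1 and Mcoln1; and the pump genes Atp6v0b, Atp6v0d1, Atp6v0e and Atp6v1a. The CLEAR core lay 50 bases before the second start of Lgmn and 141 bases before that of Gaa. In the Lamp1 promoter the matches began 62, 45, 28 and 16 bases before the start. The E-box CACGTG, which every CLEAR core contains, was present in 14 of 32 members (43.8%) and in 8.09% of all genes. The letters of the FoxO motif GTAAACA or TGTTTAC were in 0 of 32 windows and in 4.05% of all genes.

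The libraries held between 2951290 and 7687823 counts (median 5665819). The smallest count of any member in any library was 9 and the median was 255. Levels below are CPM, the counts of a gene scaled to a common library size and adjusted for composition by TMM. Foxo4 and Foxo1 were lower in the knockouts in both treatments: Foxo4 had 124 to 201 CPM in the 9 floxed libraries and 3.87 to 12.7 CPM in the 12 knockout libraries, and Foxo1 had 36.4 to 113 CPM against 7 to 26.7 CPM. The Foxo3 count covers the whole gene, had 64.1 to 114 CPM in floxed and 73.7 to 233 CPM in knockout libraries, and does not check the deletion. Muscle fibre markers such as Acta1 and Ckm were abundant in every library, with a summed 88900 to 286000 CPM, the lowest in library 17.

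Per kilobase of exon, the most abundant members in floxed muscle were Psap, the precursor of the saposins that present lipids to hydrolases, with a mean level of 400 ± 74.1 CPM per kb (SD, n = 4), and Ctsd, the main aspartic protease, with 344 ± 73.5 CPM per kb. The levels of these 2 did not differ beyond their spread. Lamp1, the major glycoprotein of the lysosomal membrane, followed with 198 ± 12.6 CPM per kb, then Gaa with 79.9 ± 12.4 CPM per kb and Ctsb with 53 ± 5.28 CPM per kb. The lowest was Gla, alpha-galactosidase A, with 1.05 ± 0.0421 CPM per kb. The spread between libraries within groups, as the biological coefficient of variation of the fit, was smallest for Scarb2 (0.18), Mcoln1 (0.188) and Ctsf (0.19), and largest for Grn (0.501), Ctsh (0.481) and Npc1 (0.464).

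The knockout effect under STZ compares STZ TKO with STZ floxed muscle, and asks what the FoxO genes change in diabetic muscle. Of the 39 members, 2 passed an adjusted p of 0.05 by edgeR's quasi-likelihood test with Benjamini-Hochberg adjustment over all 12658 genes, against 4.89% of all genes tested. Lgmn, the asparaginyl endopeptidase that processes other lysosomal proteases, rose, and Gaa, the acid alpha-glucosidase that digests lysosomal glycogen and is lost in Pompe disease, fell. The count by direction was 1 higher, against 2.47% of all genes, and 1 lower, against 2.42%. At an unadjusted p under 0.05 there were 18 members, where 18.7% of all genes passed. Of these, 16 were higher, against 10.7% of all genes, and 2 were lower, against 7.99%. The count of 18 was 11 without library 15 and 12 without library 4 or 14. It was 6 when libraries 4, 15 and 20 were all left out. A fit that also held the macrophage marker level described below gave 3. For these alternative fits the share of all genes at an unadjusted p under 0.05 was not computed. Fewer of all genes also passed the adjusted threshold without libraries 4, 15 and 20 and with the marker level, as given below. The median log2 fold change of the members was 0.29, against 0.03 over all genes tested, and 33 of 39 values were above 0. In bulk tissue, a change in the number of cells of a type and a change in RNA per cell cannot be told apart.

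Lgmn (chr12:102394084-102439813, GRCm38) had 44.8, 50.8, 35.2, 38.2 and 27.3 CPM in the 5 STZ floxed libraries, and 44.4, 44, 37.7 and 37.2 CPM in the 4 floxed libraries. In the STZ TKO libraries its lowest, median and highest values were 52.1, 110 and 183 CPM, and in the TKO libraries 41.7, 88.3 and 258 CPM. Every STZ TKO library was above every STZ floxed library, while TKO library 13 lay inside the floxed range. The log2 fold change under STZ was 1.51 ± 0.38 (SE), with an edgeR adjusted p of 0.0216, and Lgmn was the only member whose groups did not overlap in this comparison (1 of 39, against 3.74% of all genes). Without STZ the value was 1.54 ± 0.41, with an adjusted p of 0.0895, which did not pass. The call under STZ was lost when library 4, 14, 15 or 21 was left out, with an adjusted p of at most 0.0719.

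Gaa (chr11:119267887-119285454, GRCm38) had 559, 449, 401, 935 and 490 CPM in the STZ floxed libraries and 412, 445, 360 and 310 CPM in the floxed libraries. The STZ TKO libraries had a lowest, median and highest value of 176, 259 and 527 CPM, and the TKO libraries 165, 255 and 394 CPM. The groups under STZ overlapped through STZ TKO library 18, with 527 CPM, and the STZ floxed value of 935 CPM was that of library 17. The log2 fold change under STZ was -0.91 ± 0.26, with an edgeR adjusted p of 0.0442. Leaving out 1 library at a time kept this call in 5 of 21 fits, those without library 2, 6, 14, 18 or 20. Without library 17 the value was -0.67, with an adjusted p of 0.139, the highest of these fits. Without STZ the value was -0.53 ± 0.28, with an adjusted p of 0.5.

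**Figure D1:**
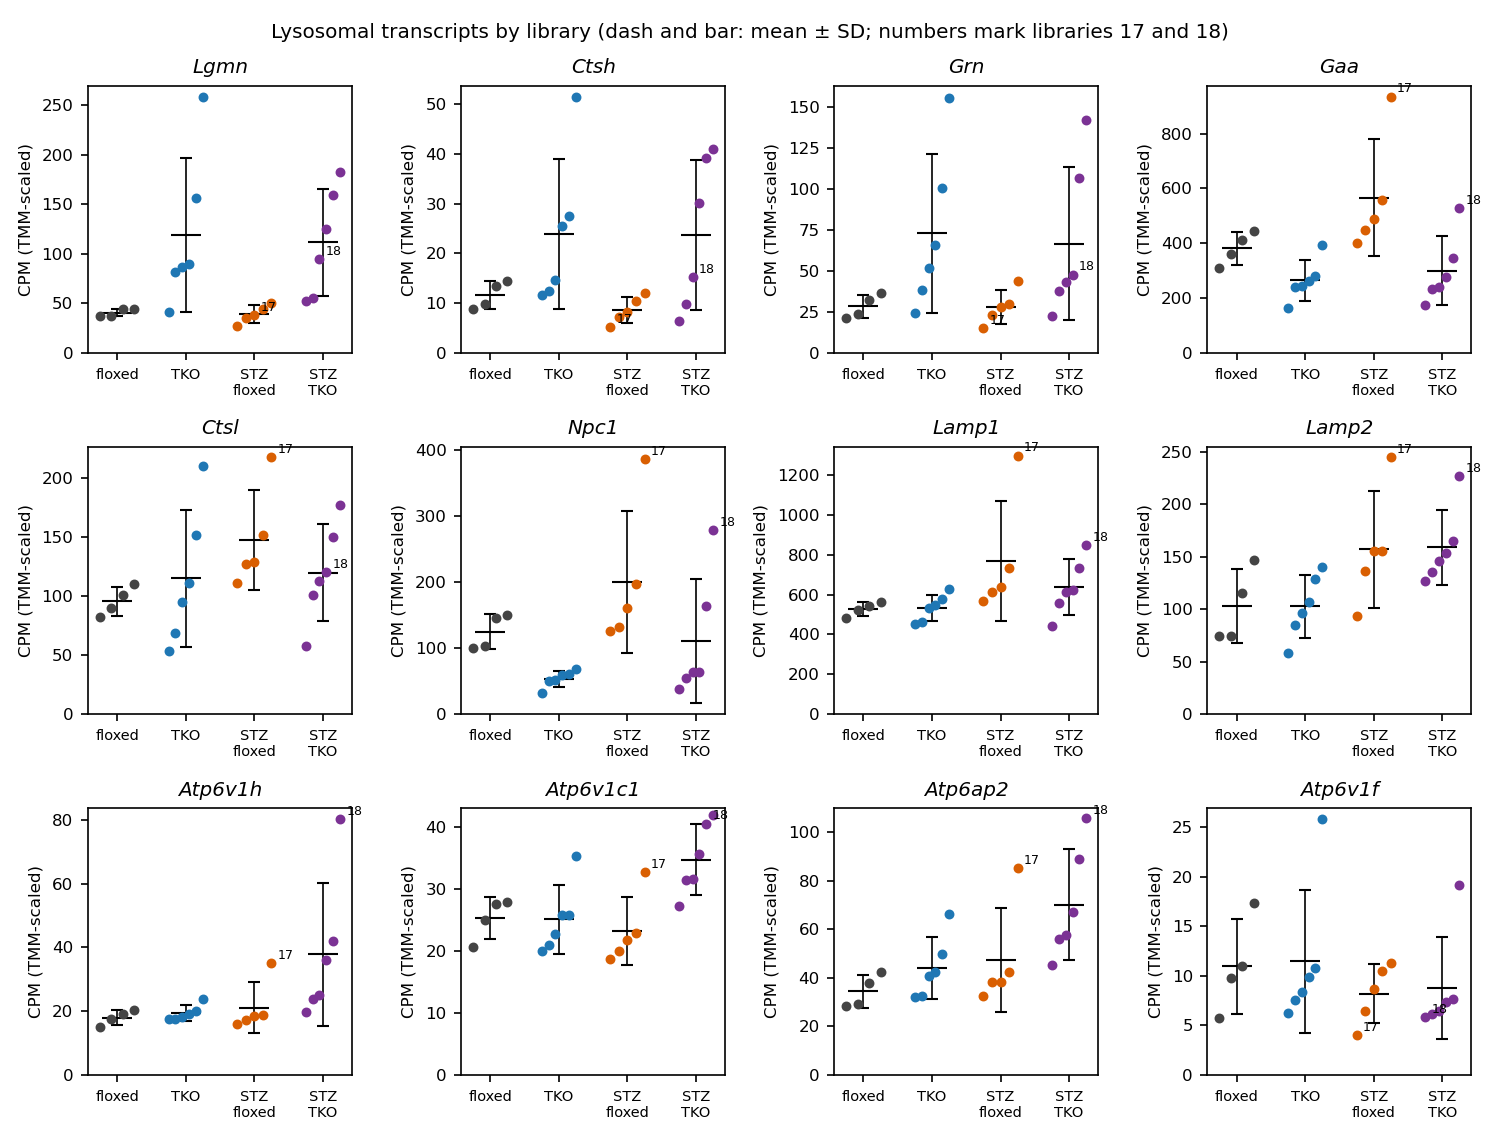
CPM of 12 lysosomal genes in each of the 21 libraries (points), by group on the x axis, with the mean and SD of each group as a dash and bar. Lgmn separates STZ TKO from STZ floxed, Gaa is lower in most knockout libraries, and library 17 is the highest STZ floxed value for Gaa, Ctsl, Npc1, Lamp1, Lamp2, Atp6v1h, Atp6v1c1 and Atp6ap2.

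Among the 9 proteases, the other 8 did not pass under STZ. Ctsh, an aminopeptidase, had 10.5, 12, 8.32, 5.27 and 7.25 CPM in STZ floxed libraries and 6.47 to 40.9 CPM in STZ TKO libraries, with a log2 fold change of 1.45 ± 0.45 and an edgeR adjusted p of 0.0649. Its STZ TKO values fell into 3 libraries at or above 30.2 CPM (4, 8 and 15) and 3 at or below 15.2 CPM. Ctsz, a carboxypeptidase, had 0.68 ± 0.29 (adjusted p = 0.203), and Ctsb, a cysteine protease, had 0.66 ± 0.28 (adjusted p = 0.2). At the other end, Ctsl, the cysteine protease known as a FoxO-responsive gene of wasting muscle, had 127, 152, 111, 218 and 129 CPM in STZ floxed libraries and a lowest, median and highest value of 57.7, 117 and 177 CPM in STZ TKO libraries. Its groups overlapped, with a log2 fold change of -0.30 ± 0.29 and an adjusted p of 0.652. Ctsa, the carboxypeptidase that protects Glb1 and Neu1, and Ctsd, Ctsf and Ctsc lay between -0.28 and 0.31.

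The 9 glycosidases, lipid enzymes and cofactors had a median of 0.60 under STZ, with 8 values above 0. Grn, progranulin, which is cleaved to granulins in the lysosome, had the highest log2 fold change of them, 1.25 ± 0.46 (adjusted p = 0.122). It had 43.8, 29.8, 28.2, 15.1 and 23.1 CPM in STZ floxed libraries and a lowest, median and highest value of 22.7, 45.6 and 142 CPM in STZ TKO libraries, where libraries 4 and 15 held the 2 highest values, 142 and 107 CPM. Glb1, beta-galactosidase, had a log2 fold change of 1.14 ± 0.39, Gusb, beta-glucuronidase, 1.08 ± 0.39, Gla 0.74 ± 0.33, Asah1, acid ceramidase, 0.60 ± 0.29, and Hexa, the alpha subunit of hexosaminidase A, 0.40 ± 0.22. Their adjusted p ranged from 0.095 for Glb1 to 0.341 for Hexa. Neu1, a sialidase, and Psap had 0.02 ± 0.32 and 0.15 ± 0.24.

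**Figure D2:**
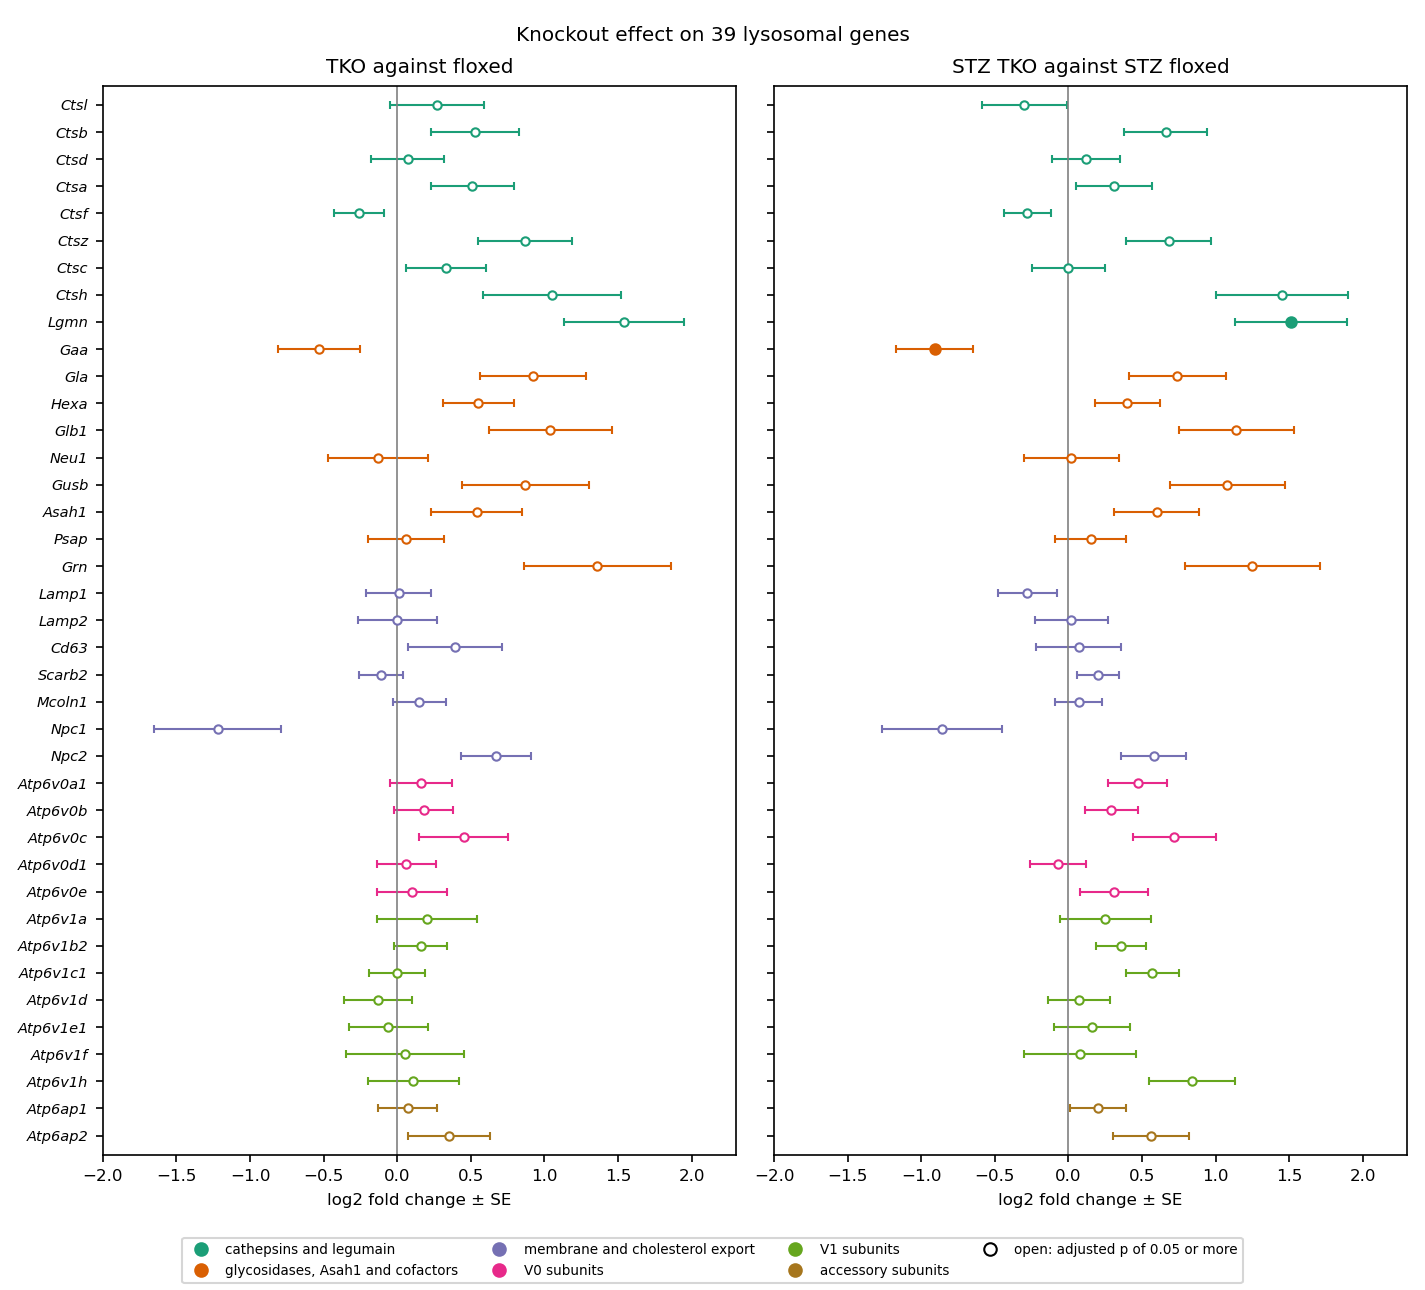
Log2 fold change with its standard error (x axis) of each of the 39 genes, for TKO against floxed (left) and STZ TKO against STZ floxed (right), coloured by role. Filled points passed an adjusted p of 0.05, which under STZ were Lgmn at 1.51 and Gaa at -0.91, and without STZ there was 0.

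Of the 7 membrane and cholesterol export genes, 0 passed under STZ, and their median was 0.07. Npc1, the membrane protein that moves cholesterol out of the lysosome, had 197, 125, 132, 386 and 161 CPM in STZ floxed libraries and a lowest, median and highest value of 37.9, 63.8 and 278 CPM in STZ TKO libraries. The STZ TKO libraries fell apart, with 4 at or below 64.1 CPM and libraries 11 and 18 at 164 and 278 CPM, and the log2 fold change was -0.86 ± 0.41 (edgeR adjusted p = 0.256). Npc2, its soluble partner, went the other way, with 21.3, 20.1, 17.2, 16 and 18.8 CPM in STZ floxed libraries and 17.4, 27 and 35.5 CPM as lowest, median and highest in STZ TKO libraries, a log2 fold change of 0.58 ± 0.22 (adjusted p = 0.132). Lamp1 had -0.28 ± 0.20, Lamp2, the glycoprotein needed for fusion with autophagosomes, 0.02 ± 0.25, and the tetraspanin Cd63 0.07 ± 0.29. Scarb2, the carrier of glucocerebrosidase, had 0.20 ± 0.14, and the calcium channel Mcoln1 had 0.07 ± 0.16, with a 95% interval of -0.25 to 0.39.

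The 14 proton pump genes had log2 fold changes from -0.07 to 0.84 under STZ, where the 18 enzymes and cofactors ran from -0.91 to 1.51. Of the 14, 0 passed, 13 were above 0, and their median was 0.30. In the V0 sector the highest was Atp6v0c, the proteolipid of the rotating ring, with 8.61, 3.56, 9.49, 9.09 and 4.63 CPM in STZ floxed libraries and 4.85, 13.3 and 15.5 CPM as lowest, median and highest in STZ TKO libraries, a log2 fold change of 0.72 ± 0.28 (adjusted p = 0.141). The lowest was Atp6v0d1, with 44.1, 42.4, 44, 80 and 52.6 CPM against 37, 47.9 and 65.2 CPM, and -0.07 ± 0.19. The groups of both overlapped. Atp6v0a1 had 0.47 ± 0.20, and Atp6v0b and Atp6v0e had 0.29 ± 0.18 and 0.31 ± 0.23.

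In the V1 sector, Atp6v1h, a regulatory subunit, had 18.4, 17.2, 16.1, 35.1 and 18.7 CPM in STZ floxed libraries and a lowest, median and highest value of 19.6, 30.5 and 80.3 CPM in STZ TKO libraries. Every STZ TKO library was above 4 of the 5 STZ floxed libraries, and library 17, with 35.1 CPM, lay inside their range. The log2 fold change was 0.84 ± 0.29, with an adjusted p of 0.0932. Atp6v1c1, a stalk subunit, had 20, 18.8, 21.8, 32.7 and 23 CPM against 27.3 to 41.9 CPM, with library 17 again the one that overlapped, and 0.57 ± 0.18 (adjusted p = 0.0667). Without library 17, 4 members passed in place of 2, where 4.4% of all genes did: Lgmn, Atp6v1c1, Atp6v1h and Atp6ap2. Atp6v1d had 89.5, 77.7, 104, 198 and 104 CPM in STZ floxed libraries, 73.4, 126 and 145 CPM as lowest, median and highest in STZ TKO libraries, and 0.07 ± 0.21. The catalytic subunit Atp6v1a and the B subunit Atp6v1b2 had 0.25 ± 0.31 and 0.36 ± 0.17. Atp6v1e1, a stalk subunit, and Atp6v1f had 0.16 ± 0.26 and 0.08 ± 0.38. Of the accessory subunits, Atp6ap2, also called the prorenin receptor, had 32.7, 38.5, 38.2, 85.4 and 42.6 CPM against 45.4, 62.4 and 106 CPM, and 0.56 ± 0.26 (adjusted p = 0.239). Atp6ap1 had 84.5, 74.5, 52.3, 48 and 50.6 CPM against 59.3, 66.3 and 97.1 CPM, and 0.20 ± 0.19.

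The knockout effect without STZ compares TKO with floxed muscle of mice that had no STZ. Of 39 members, 0 passed by edgeR, against 0.514% of all genes, 9 had an unadjusted p under 0.05, against 11.5%, and DESeq2 called 1, Lgmn (adjusted p = 0.00806), where it called 2.78% of all genes. With the macrophage covariate, 2 members had an unadjusted p under 0.05, and the share of all genes in that fit was not computed. The median log2 fold change was 0.16 over the members and 0 over all genes. For the 18 enzymes and cofactors it was 0.54, with 15 values above 0, and for the 14 pump genes 0.11, with 12 above 0. Npc1 had 100, 145, 150 and 103 CPM in floxed libraries and a lowest, median and highest value of 32.1, 54.9 and 67.9 CPM in TKO libraries. Every TKO library was below every floxed library. The log2 fold change was -1.22 ± 0.43, with an adjusted p of 0.212 by edgeR over all 4 groups and 0.013 in a fit of the TKO and floxed libraries alone (-1.19 ± 0.20). The share of all genes called in that smaller fit is not given here. Of the 39 members, the groups of 2 did not overlap, Npc1 and Gla (3.27 to 3.58 CPM in floxed and 3.97 to 10.2 CPM in TKO libraries), against 4.97% of all genes.

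The STZ effect in floxed controls compares STZ floxed with floxed muscle, and asks what diabetes changes where FoxO genes are intact. Of 39 members, 0 passed by edgeR or DESeq2, against 1.35% of all genes by edgeR, and 2 had an unadjusted p under 0.05, against 14.4%. Without library 1 or 17 that count was 0, and the share of all genes was not computed there. The median log2 fold change was 0.03 over the members and 0.02 over all genes. Membrane genes had the highest median, 0.55. In the same comparison 10 of 10 fibroblast markers were below 0 (median -0.76, 2 lower past the threshold), with summed levels of 4070 to 9450 CPM in floxed and 1070 to 3270 CPM in STZ floxed libraries. Of 12 muscle fibre markers 10 were below 0 (median -0.40, 1 lower past the threshold), with 196000 to 286000 CPM against 88900 to 274000 CPM. Library 17 was the lowest for both lists, and their part in the values of the membrane genes was not tested. Lamp1 had 485, 564, 522 and 542 CPM in floxed libraries and 614, 568, 641, 1300 and 733 CPM in STZ floxed libraries, and these did not overlap. Its log2 fold change was 0.55 ± 0.23 (adjusted p = 0.263) and was 0.28 ± 0.17 without libraries 17 and 18, where the membrane median was 0.16. Lamp2 had 74.2, 74.1, 115 and 147 CPM against 93, 136, 155, 245 and 155 CPM, and 0.61 ± 0.28 (adjusted p = 0.313). Ctsl was the other of 2 members whose groups did not overlap (8.79% of all genes), with 82.2, 101, 110 and 89.5 CPM in floxed libraries and at least 111 CPM in STZ floxed libraries. Its log2 fold change was 0.62 ± 0.33, with an adjusted p of 0.394 and a 95% interval of -0.02 to 1.27.

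The STZ effect in knockouts compares STZ TKO with TKO muscle. Of 39 members, 0 passed by edgeR or DESeq2, against 0.142% of all genes by edgeR, and 6 had an unadjusted p under 0.05, against 11.3%. The groups of 0 members did not overlap, against 0.624% of all genes. The median of the members was 0.06 and that of all genes 0.01. Atp6v1h had 17.4, 18.7 and 23.8 CPM as lowest, median and highest in TKO libraries, against 19.6, 30.5 and 80.3 CPM in STZ TKO libraries, a log2 fold change of 0.96 ± 0.27 (adjusted p = 0.196). Npc1 had 1.04 ± 0.39 and Atp6ap2 0.67 ± 0.25, with adjusted p of 0.338 and 0.329. The difference between the STZ effects of knockouts and floxed controls was past the threshold for 0 of 39 members by edgeR or DESeq2, against 0.0079% of all genes by edgeR, and 1 member, Atp6v1c1, had an unadjusted p under 0.05 (3.89% of all genes), with 0.57 ± 0.26.

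Macrophage markers, which muscle fibres lack, differed between the genotypes as well. Of 16 markers listed, 15 were tested. Without STZ 15 of 15 values were above 0 in the knockouts and 2 passed the adjusted threshold, against 0.514% of all genes. Under STZ 14 of 15 were above 0 and 8 passed, all higher, against 4.89% of all genes. In each comparison 14 had an unadjusted p under 0.05 by edgeR, against 11.5% of all genes without and 18.7% under STZ. The median log2 fold changes of the markers were 2.13 and 2.04. Their summed level was 189 to 259 CPM in floxed, 218 to 327 CPM in STZ floxed, 336 to 1970 CPM in TKO and 307 to 2510 CPM in STZ TKO libraries. No marker was at 0 in every library of any group. The mean marker level was highest in libraries 20, 4 and 15, and in those libraries 10, 8 and 5 of the 18 enzymes had the highest value of their group. How many of all genes did so was not counted. Markers of satellite cells and regeneration such as Pax7 and Myh3 had positive values for 6 of 6 in both knockout comparisons (medians 1.74 without and 1.04 under STZ, 0 past the threshold). Their summed level was 34.4 to 49.8 CPM in floxed, 64.6 to 1530 CPM in TKO, 41.3 to 84.3 CPM in STZ floxed and 47.9 to 558 CPM in STZ TKO libraries, and was highest in libraries 20, 4 and 15. Genes known to respond to denervation, such as Chrng, had positive values for 8 of 10 in both (medians 2.07 and 0.98, 0 past the threshold). Their summed level was 126 to 222 CPM in floxed, 154 to 1690 CPM in TKO, 167 to 391 CPM in STZ floxed and 133 to 627 CPM in STZ TKO libraries, highest in libraries 20 and 4. Myh3 is in both lists, no gene of either was at 0 in every library of a group, and the part of these lists in the enzyme values was not tested. Fibroblast markers were positive for 8 of 10 under STZ (median 0.51, 1 higher past the threshold) and for 4 of 10 without STZ (median -0.08, 0 past it). Endothelial markers were below 0 for 9 of 10 in both comparisons (medians -0.23 without and -0.37 under STZ, 0 past the threshold). Adipocyte markers were below 0 for 6 of 6 without STZ and 5 of 6 under STZ (medians -0.81 and -1.32, 0 past the threshold). The part of these cell types in the enzyme values was not tested. Macrophages are rich in lysosomes, and their FoxO genes are not deleted in this design.

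With the macrophage marker level as a covariate, the median of the 18 enzymes went from 0.50 to -0.16 under STZ and from 0.54 to -0.22 without STZ, and the number above 0 went from 15 to 5 in both. The pump genes under STZ had a median of 0.25 in that fit and 0.30 without the covariate. Lgmn had 0.30 ± 0.25 (adjusted p = 0.65), Ctsh 0.01 ± 0.30, Grn -0.18 ± 0.30 and Gaa -0.50 ± 0.30 (adjusted p = 0.494), so neither call was kept. Ctsl had -1.12 ± 0.26, with an edgeR adjusted p of 0.0228, and was the 1 member past the threshold, where 1.98% of all genes were. Atp6v1h had 1.01 ± 0.35 and Atp6v1c1 0.45 ± 0.22. The marker level differed between the genotypes, so this fit cannot tell its part apart from that of the knockout. STZ TKO libraries 11 and 12 had summed marker levels of 324 and 307 CPM, within the STZ floxed range. Their mean levels were -0.53 and -0.58, where STZ floxed libraries had -1.06 to -0.54. In these 2, Lgmn had 55.4 and 52.1 CPM, above each STZ floxed library, and Gaa had 347 and 277 CPM, below each. This is no separate test, since it held for every STZ TKO library for Lgmn and for all but library 18 for Gaa. In the same 2, Ctsh had 6.47 and 9.91 CPM and Grn had 43.3 and 22.7 CPM, within their STZ floxed ranges. Ctsl had 101 and 57.7 CPM there, below its STZ floxed range. TKO library 13 had the lowest marker level of its group, 336 CPM, which was above the floxed range. It had 41.7 CPM of Lgmn, inside the floxed range, and 264 CPM of Gaa, below that range. The part of the marker level in these values was not tested. Leaving out libraries 4, 15 and 20, the 3 with the highest marker level, took the median of the enzymes under STZ from 0.50 to 0.19, while that of the pump genes was 0.33. That fit gave 1.07 ± 0.31 for Lgmn (adjusted p = 0.0567), -0.77 ± 0.28 for Gaa (adjusted p = 0.141) and 1.09 ± 0.29 for Atp6v1h (adjusted p = 0.0436), the 1 member then past the threshold, where 3.59% of all genes were.

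**Figure D3:**
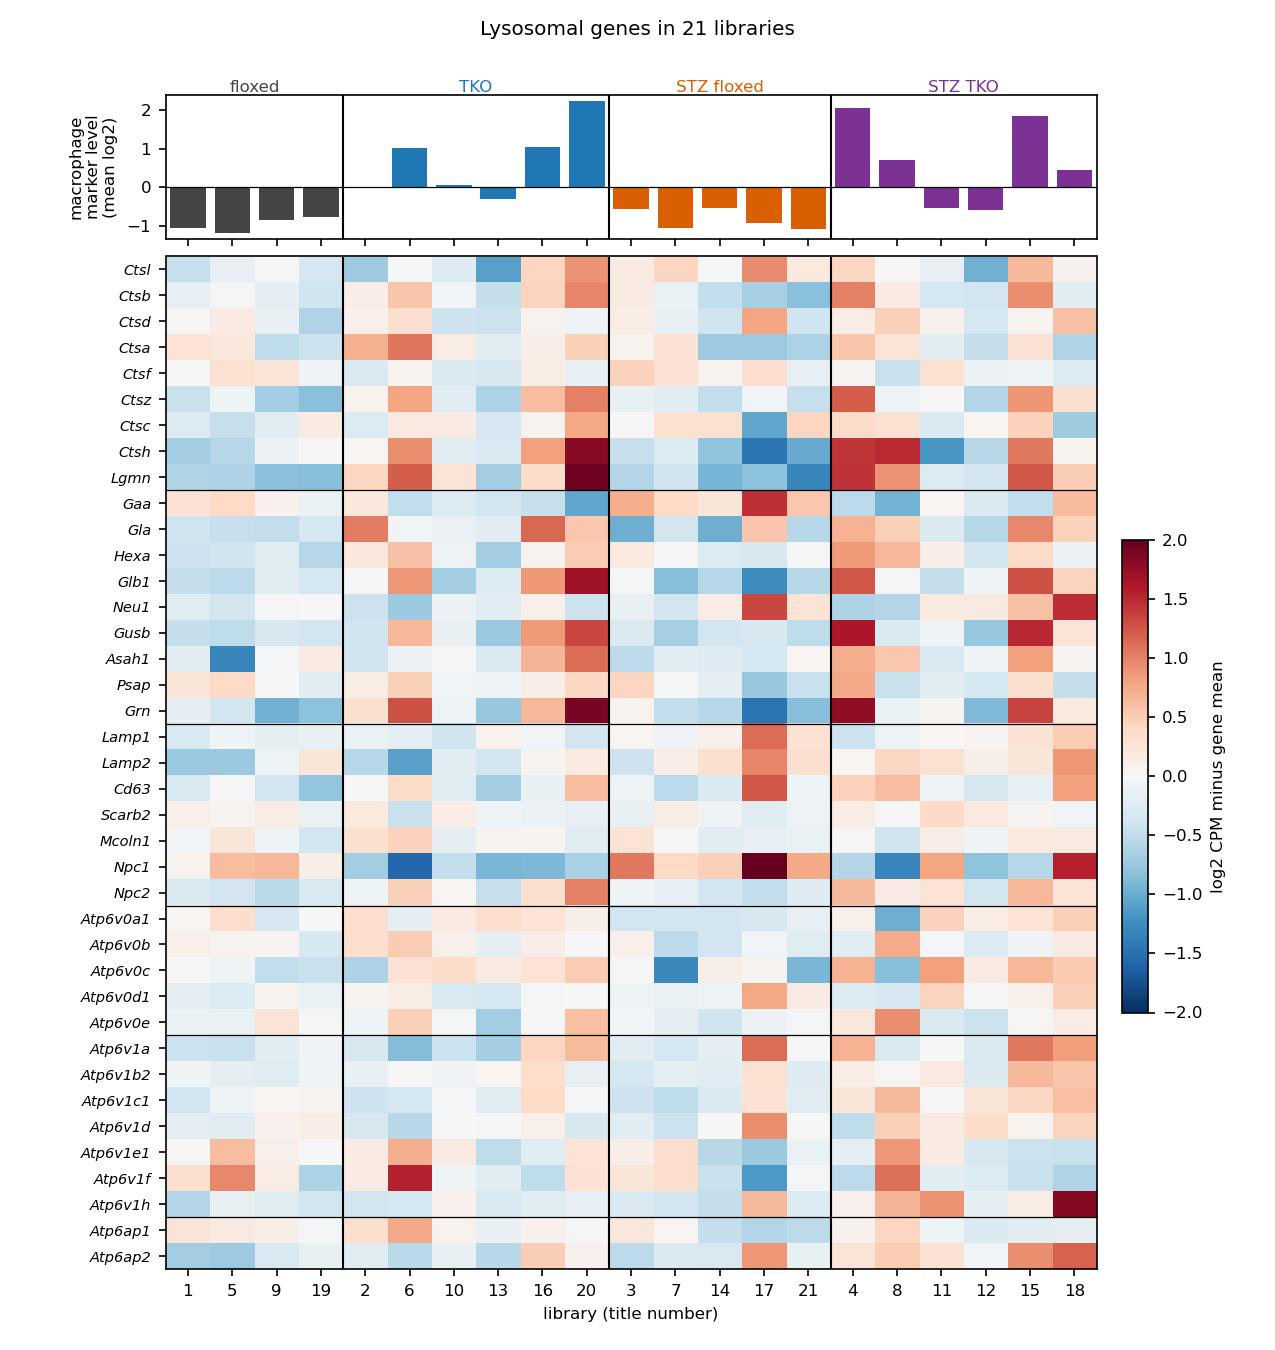
Log2 CPM of each of the 39 genes minus its mean over the 21 libraries (colour, limited to -2 and 2), with libraries on the x axis by group, below the mean log2 macrophage marker level of each library (bars). Ctsh, Lgmn, Glb1, Gusb and Grn are high in libraries 20, 4 and 15, where the bars are highest, while Npc1 and Gaa are high in library 17.

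**Figure D4:**
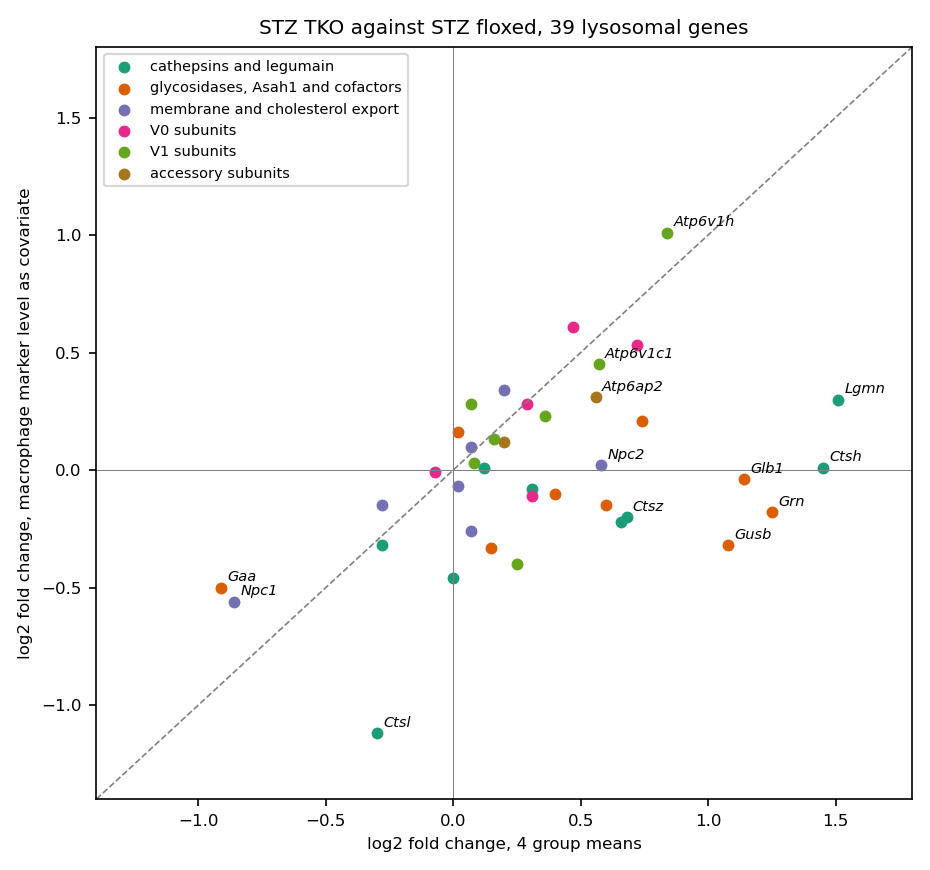
Log2 fold change of STZ TKO against STZ floxed for the 39 genes, from the 4 group means (x axis) and with the macrophage marker level as a covariate (y axis), coloured by role, with a dashed line of equal values. Lgmn goes from 1.51 to 0.30, Ctsh from 1.45 to 0.01 and Ctsl from -0.30 to -1.12, while Atp6v1h is at 0.84 and 1.01.

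Libraries also differed in ways the groups do not explain. Library 17 had the highest value of its group for 17 of the 39 members, 7 of them pump genes, and library 18, from the same run of consecutive library codes, for 11. The titles' codes form 6 such runs, which the labels do not call batches. How many of all genes had their highest value in library 17 or 18 was not counted, so this may not be particular to the members. With the run as a block, 11 members passed under STZ, where 8.44% of all genes did: Ctsh, Lgmn, Gla, Glb1, Grn, Npc2, Atp6v1c1, Atp6v1h and Atp6ap2 higher, Gaa and Npc1 lower. In that fit Lgmn had 1.71 ± 0.36 (edgeR adjusted p = 0.00833) and Gaa -1.02 ± 0.23 (adjusted p = 0.0112). The STZ effect in knockouts then had 2 members past the threshold, Lamp2 at 0.72 ± 0.16 and Atp6ap2 at 0.73 ± 0.16, where 0.774% of all genes were. No run held enough libraries of each group for a test within it. The exons of Npc1, Ctsa, Ctsb and Lamp1 overlap those of genes on the other strand, and those of Glb1 overlap Tmppe on the same strand. Their counts may include reads of these neighbours or lack reads that overlap both genes, since how such reads were counted is not given.

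Other lysosomal genes were taken from lists of 99, of which 94 were tested. Under STZ 6 of the 94 passed, 5 higher and 1 lower in the knockouts, against 4.89% of all genes. Without STZ 1 of the 94 passed and was lower, against 0.514% of all genes. Sort1, the sortilin receptor that sorts hydrolases in the Golgi, had 234 to 272 CPM in floxed, 69.7 to 149 CPM in TKO, 253 to 368 CPM in STZ floxed and 74.3 to 132 CPM in STZ TKO libraries. Its knockout libraries were below its floxed libraries in both treatments, with log2 fold changes of -0.99 ± 0.21 (edgeR adjusted p = 0.0277) and -1.63 ± 0.20 (adjusted p = 3.45e-05). The proteases Ctsk and Ctss and the phosphatase Acp5, all known from macrophages or osteoclasts, were higher in the knockouts under STZ. Their log2 fold changes against STZ floxed muscle were 4.52 ± 0.92, 3.28 ± 0.73 and 4.21 ± 1.04. Their lowest STZ TKO values, 7.52, 8.88 and 1.2 CPM, lay inside the STZ floxed ranges. Ctsk had 4.16 to 7.8 CPM in STZ floxed libraries, below its 11.1 to 23.3 CPM in floxed libraries. Atp6v0d2, a V0 subunit also known from macrophages or osteoclasts, had 662 counts over the 6 STZ TKO libraries and 4 over the 5 STZ floxed libraries. It had 274 over the 6 TKO libraries and 0 over the 4 floxed libraries. The counts were uneven, with 4 to 316 in single STZ TKO libraries and 1 to 219 in single TKO libraries. Library 16 held the 219. The adaptor Gga2, chosen after its values were seen, was the fifth. With the macrophage marker level as a covariate, Sort1 had -1.70 ± 0.26 under STZ, and Ctss 0.65 ± 0.34. Of 15 regulators, among them Tfeb, Tfe3 and Mitf, 0 passed in any comparison, and Tfeb had mean levels between 52.3 and 56 CPM in the 4 groups.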

How the data were processed

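RNA was extracted with Trizol from powdered muscle and sequenced from a stranded kit, per the labels' protocols. The authors deposited raw counts of reads per gene for 21 libraries. STAR, featureCounts and GRCm38.p4 are named per the submitters' processing notes; for their versions, the annotation and the strand setting nothing was given in the sources used here, so antisense reads may be included. Rows without a symbol hold 0.0533% of counts.

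Genes were filtered with edgeR's filterByExpr, scaled by TMM, and tested with edgeR 4.0.16 (R 4.3.3) by robust quasi-likelihood fits of 4 group means over all libraries, two-sided, with Benjamini-Hochberg adjustment over 12658 genes at 0.05. Standard errors are the log2 fold change over the square root of F. Counts were simulated for the knockout under STZ with the same biological coefficient of variation, 0.325, for every gene. Tests on them recovered 22 of 49 genes made 2-fold lower and 17 of 50 made 2-fold higher. They also recovered 48 of 49 made 4-fold lower and 50 of 50 made 4-fold higher, and called 7 of 12264 unchanged genes. All 39 members were described; of the other lysosomal genes, those that passed were named, at most the 4 highest and 4 lowest in a comparison. The members and lists were chosen with earlier results of these data known. Alternatives were DESeq2 1.42.0, other size factors, no filter, only the groups compared, the run of library codes as a block, the macrophage marker level as a covariate, and leaving out each library. No 2 libraries were duplicates: their counts differed by a chi-square per degree of freedom of at least 8.61.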

Additional observations from a re-analysis of the deposited data

Results flagged for a closer look

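Of 156 values of a member in a group, 23 had a highest or lowest library that stood apart by Dixon's criterion. Chance meets it in about 1 of 20 groups of normally distributed values. It was applied here to CPM without a log, and the share of all genes that met it was not computed. The count of 23 therefore does not show that the members are unusual. Library 17, of the STZ floxed group, was the high one for 11 members. Its membrane and enzyme values were Lamp1 1300 CPM (next highest 733), Npc1 386 CPM (197), Cd63 121 CPM (48.3), Neu1 131 CPM (62.8) and Gla 6.73 CPM (3.56). Its pump values were Atp6v1d 198 CPM (104), Atp6v1b2 122 CPM (86.8), Atp6v1a 101 CPM (46.9), Atp6ap2 85.4 CPM (42.6), Atp6v0d1 80 CPM (52.6) and Atp6v1h 35.1 CPM (18.7). The same library had the lowest summed level of muscle fibre markers, 88900 CPM. Whether this bears on its lysosomal values was not tested.

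Library 18, of the STZ TKO group, was high for Lamp2 at 227 CPM (next highest 165) and Atp6v1h at 80.3 CPM (42.1). Library 8, of the same group, was high for Atp6v0b at 96.1 CPM (64.7), Atp6v1e1 at 65.8 CPM (40.4), Atp6v0e at 50 CPM (30.2) and Atp6v1f at 19.1 CPM (7.66), and low for Atp6v0a1 at 68.5 CPM (next lowest 144). Among TKO libraries, library 16 was high for Atp6v1b2 at 126 CPM (101), library 6 high for Atp6v1f at 25.8 CPM (10.8) and library 2 low for Atp6v0c at 5.69 CPM (9.93). Among floxed libraries, library 5 was high for Atp6v1e1 at 55.4 CPM (38.8) and library 19 low for Atp6v0b at 46 CPM (59.4).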

How the results depend on the processing

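The number of members past the threshold was 2 for the knockout effect under STZ and 0 for the other comparisons. Under STZ it was 4 by DESeq2 (Ctsh, Lgmn and Atp6v1c1 higher, Gaa lower; 7.99% of all genes), 1 with no filter on low counts (Gaa; 1.63% of all genes), 1 in a fit of the groups compared alone (Lgmn; 2.62%), 11 with the code run as a block and 1 with the macrophage marker level as a covariate (Ctsl). Leaving out 1 library at a time gave 0 to 4 under STZ, with 0 without library 4, 15 or 21 and 4 without library 17. Without STZ it was 1 by DESeq2 (Lgmn), 1 in a fit of the groups compared alone (Npc1) and 0 to 1 on leaving out a library (1 without library 13, Lgmn). For the STZ effect in knockouts it was 2 with the code run as a block. With 2 alternatives chosen after seeing the data, it was 1 under STZ without libraries 4, 15 and 20 (Atp6v1h) and 3 without libraries 17 and 18 (Gaa, Atp6v1c1 and Atp6v1h). No share of all genes is given here for the fit that called Npc1, nor under STZ for the fit without libraries 17 and 18. The cause of these changes was not tested. Over all genes, the calls under STZ went from 619 to 1011 by DESeq2, 1068 with the block, 250 with the covariate and 312 with the groups compared alone, and ranged from 380 (without library 21) to 780 (without library 20) on leaving out a library. For the STZ effect in floxed controls they went from 171 to 425 by DESeq2, 311 with the covariate, 265 with those groups alone and 258 without libraries 4, 15 and 20, and from 31 (without library 1) to 333 (without library 3) on leaving out a library. Without STZ they went from 65 to 351 by DESeq2, 18 with the covariate and 125 without libraries 17 and 18, and from 32 (without library 5) to 105 (without library 13). For the STZ effect in knockouts they went from 18 to 111 by DESeq2, 98 with the block, 33 with the covariate, 29 with no filter, 4 with those groups alone, 79 without libraries 4, 15 and 20 and 28 without libraries 17 and 18, and from 7 (without library 2, 11 or 13) to 61 (without library 4). No paired analysis was possible because the title numbers differ in every library, so no replicate number joins groups. The runs of library codes, which each span 3 or 4 groups, were fitted as the block whose counts stand above. Changes of 2-fold were recovered for 22 of 49 genes simulated lower and 17 of 50 simulated higher, so members with such changes can miss the threshold at this depth and spread.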

Other observations

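In 3 of the 6 runs of consecutive library codes, some members had their extreme value of each group in the run, and in the other 3 runs 0 members did. Libraries 5 to 8, 1 from each group, each had the highest value of their group for Atp6v1f and Atp6v1e1, which is 5.13% of the members, while 1.71% of all genes did so. Libraries 16 to 18 each had the highest value of their group for Neu1 and Atp6ap2 (1.75% of all genes) and the lowest for Atp6v1f (2.56% of the members and 1.51% of all genes). Libraries 19 to 21 each had the highest value of their group for Ctsc and Asah1 (0.869% of all genes). Library 13 had the lowest value of the TKO group for 22 of the 39 members, and library 12 the lowest of the STZ TKO group for 18. How many of all genes were lowest in these libraries was not counted.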
